A study of Arabidopsis thaliana with 12 samples.

Results

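The combined treatment of Arabidopsis thaliana Col-0 whole seedlings with isoxaben and PEP3 was compared with a DMSO mock across all expressed genes. Seedlings aged 10 days, raised in liquid Murashige and Skoog medium at 6 seeds per well, were treated in fresh medium and sampled after 6 h. The combined group (3 libraries) received 600 nM isoxaben and 10 nM AtPEP3, and the mock group (3 libraries) received neither. The remaining 6 of the 12 libraries, 3 with 600 nM isoxaben alone and 3 with 10 nM AtPEP3 alone, entered the fit and serve as reference points. All 4 groups were wild type and contained the same amount of DMSO. The labels call the libraries biological replicates but do not say how many wells or seedlings were pooled in each. The p-values thus rest on the spread between libraries of the same group, whatever each one pooled. A gene was a member when its mean over the 12 libraries reached 0.5 FPKM, and 20248 of the 32833 genes in the deposited table did. No difference between groups was used for that choice, but a gene low under DMSO could enter through its values in the treated groups.

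Isoxaben is a herbicide that stops cellulose synthesis by removing cellulose synthase complexes from the plasma membrane, and the weakened wall is known to set off jasmonate production, lignin deposition and reactive oxygen. PEP3 is a plant elicitor peptide, cut from the precursor PROPEP3 in damaged cells and bound at the cell surface by the receptor kinases PEPR1 and PEPR2 with the co-receptor BAK1. That receptor complex feeds into the same kinase cascades, oxidative burst and WRKY transcription factors as the perception of microbial patterns. Giving both agents together presents a wall defect and a danger signal at the same time.

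Values are the FPKM deposited by the authors, that is, fragments divided by gene length and by library depth. Multiplied by gene length and depth they gave whole fragment numbers for 100% of values in every library (tolerance 0.01 fragments), with totals of 16995775 to 22793764 fragments and 22776 to 23068 genes above 0. Replicates of a group correlated at 0.986 to 0.991 across genes on the log2 scale. The test was limma's moderated fit of all 12 libraries after a log2(FPKM + 1) transform, and a gene is called higher or lower at a Benjamini-Hochberg adjusted p under 0.05. Changes on this scale understate those of genes with low values. The value after ± on a log2 change is its standard error, which rests on the spread pooled over all 12 libraries. After a mean in FPKM, ± gives the SD of the 3 libraries of that group. Changes of further genes are given without a standard error.

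The combined treatment moved a large part of the transcriptome. Of the 20248 genes tested, 6355 were called (31.4%), of which 3431 were higher (16.9%) and 2924 lower (14.4%). A log2 change of at least 1 was reached by 756 genes called higher (3.73%) and by 125 called lower (0.617%), 175 genes rose by more than 2, and 36 by more than 3. The median change was 0.55 among genes called higher, -0.45 among genes called lower, and -0.0016 over all genes. The 3 combined libraries all lay outside the range of the 3 mock libraries for 9146 genes (45.2%), above it for 4734 (23.4%) and below it for 4412 (21.8%). The filter took the mean over all groups, and 421 tested genes averaged under 0.5 FPKM in the mock group, 211 of them called higher. Likewise 296 averaged under 0.5 FPKM in the combined group, 54 of them called lower.

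**Figure D1:**
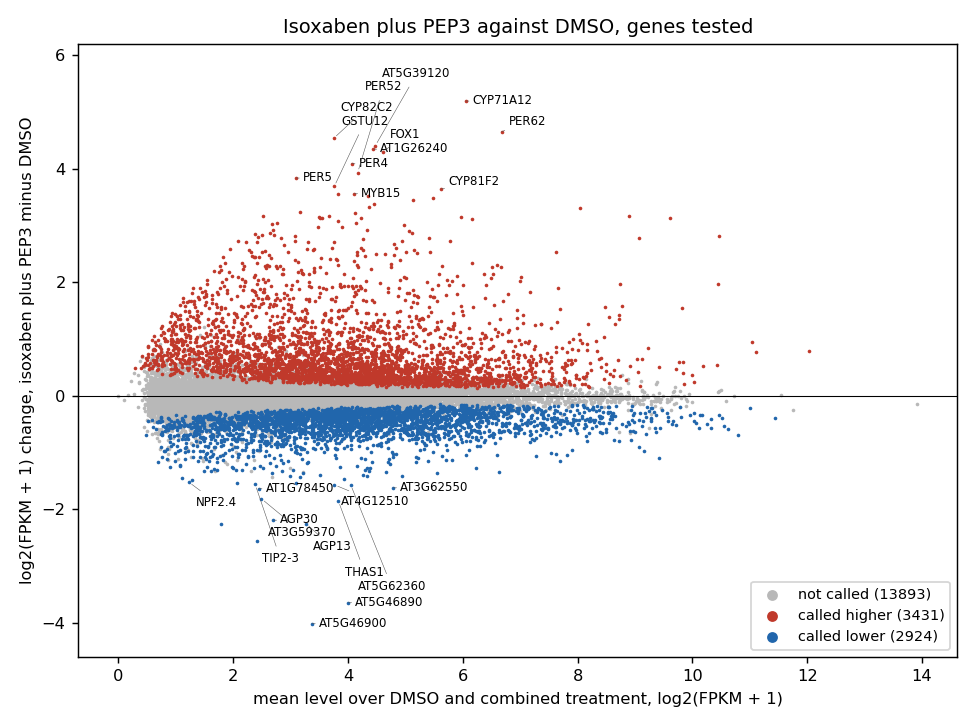
Change in log2(FPKM + 1), isoxaben plus PEP3 minus DMSO (vertical), against the mean level of both groups (horizontal), 1 point per gene tested; red points were called higher (3431), blue lower (2924) and grey not called (13893), and the 12 highest and 12 lowest protein-coding genes are named. The red points reach 5.19 above the zero line and the blue ones -4.02, with few blue points beyond -2; both unlabelled blue points beyond -2 are small nucleolar RNA genes.

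The 12 protein-coding genes with the largest rise, taken from called genes whose libraries did not overlap, were dominated by 2 kinds of enzyme, cytochrome P450s and related oxidases of indolic defence metabolism, and class III peroxidases of the cell wall. The largest rise was in CYP71A12 (AT2G30750, chromosome 2, 13099486-13101371, minus strand of TAIR10), which converts indole-3-acetaldoxime towards indolic defence compounds. CYP71A12 was at 1.77, 3.27 and 2.68 FPKM in the 3 mock libraries and at 116, 141 and 127 FPKM in the 3 combined ones. Both groups lay far apart, and the change was 5.19 ± 0.24, limma adjusted p = 7.4e-09. CYP82C2, which hydroxylates an indole-carbonyl nitrile to the 4-hydroxy form, was close to absent from mock seedlings, at 0.0253, 0.151 and 0.147 FPKM, against 22.0, 28.3 and 24.2 FPKM in the combined libraries (4.54 ± 0.29, limma adjusted p = 1.1e-07). FOX1, the flavin-dependent oxidase of the same branch, went from 0.911, 1.57 and 1.65 FPKM to 40.9, 49.0 and 46.3 FPKM (4.30 ± 0.24, limma adjusted p = 2.9e-08). CYP81F2, which starts the modification of indole glucosinolates, rose from 4.12, 7.56 and 7.82 FPKM to 84.8, 101 and 85.5 FPKM (3.64 ± 0.18, limma adjusted p = 1.5e-08).

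Peroxidase genes made up 4 of the 12. PER62 was the most abundant of them after treatment, at 198, 206 and 184 FPKM in the combined libraries against 7.13, 5.48 and 8.01 FPKM under DMSO (4.65 ± 0.13, limma adjusted p = 9.7e-11). PER4 (4.09), PER52 (3.93) and PER5 (3.84) were all under 2 FPKM in each mock library, and their lowest combined values were 29.8, 27.9 and 13.5 FPKM. The glutathione transferase gene GSTU12 rose by 3.69 ± 0.18, limma adjusted p = 1.2e-08, and MYB15, a transcription factor that activates lignin genes during immunity, by 3.56 ± 0.12, limma adjusted p = 7.1e-10. The remaining members were AT1G26240, annotated as a proline-rich extensin-like wall protein (4.35), and AT5G39120, annotated as a cupin protein (4.41). AT5G39120 is 97.1% identical to its neighbour AT5G39150, so fragments may be shared between them.

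The 12 protein-coding genes with the largest fall, taken in the same way, included arabinogalactan proteins of the cell surface, lipid-transfer-like proteins and a root triterpene enzyme. AT5G46900 and AT5G46890, both annotated as lipid-transfer-like proteins, fell the most. AT5G46900 was at 19.3, 18.5 and 17.9 FPKM in the 3 mock libraries and at 0.226, 0.252 and 0.145 FPKM in the 3 combined ones. AT5G46890 went from 29.3, 35.2 and 21.8 FPKM to 1.15, 2.07 and 0.936 FPKM, and the changes were -4.02 ± 0.14, limma adjusted p = 1.1e-09 and -3.64 ± 0.21, limma adjusted p = 3.5e-08. The pair is 94.5% identical over most of the gene and may share fragments. AGP13 (-2.25) and AGP30 (-2.19), which encode arabinogalactan proteins, came next. AGP30 is known from the root, where it affects regeneration and germination, and it went from 8.03, 10.3 and 10.6 FPKM to 0.851, 1.3 and 1.92 FPKM.

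THAS1, the oxidosqualene cyclase that starts the thalianol pathway of root triterpenes, fell from 16.3, 22.2 and 25.8 FPKM to 4.91, 4.66 and 5.77 FPKM (-1.85 ± 0.19, limma adjusted p = 6.9e-06). The tonoplast aquaporin gene TIP2-3 (-1.56) and the root anion transporter gene NPF2.4 (-1.52) were also in this group. The other 5 were AT3G59370 (-1.81), AT1G78450 (-1.64), AT3G62550 (-1.62), AT4G12510 (-1.57) and AT5G62360 (-1.57), annotated as a vacuolar calcium-binding-like, a heme-binding, an adenine nucleotide hydrolase-like, a lipid-transfer-like and a pectin methylesterase inhibitor protein. AT4G12510 is 93.5% identical to AT4G12520.

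On the linear scale the genes with the largest gain were abundant ones. EARLI1 and AZI1, neighbouring lipid-transfer-like genes of which AZI1 takes part in systemic defence priming, averaged 3047 and 1428 FPKM under DMSO and 5277 and 2771 FPKM after the combined treatment. GSTF6, a glutathione transferase linked to camalexin synthesis, rose from 347 ± 14.4 FPKM (mean and SD, n = 3) to 2463 ± 300.2 FPKM. The extensin gene ATEXT4, a structural wall glycoprotein, rose from 569 ± 30.6 to 2234 ± 249.8 FPKM, and the peroxidase gene PER71 from 159 ± 3.78 to 1409 ± 186 FPKM. All 5 were called higher, with log2 changes of 0.79, 0.95, 2.82, 1.97 and 3.13. The largest linear losses were in BGLU23, the beta-glucosidase of ER bodies, at 2196 ± 29.7 FPKM against 1367 ± 158 FPKM, and in 4 genes for chloroplast proteins. The latter were the Rubisco small subunit genes AT5G38410 (-0.40) and RBCS-2B (-0.53), the thiazole synthase gene THI1 (-0.58) and the photosystem II gene PSBP1 (-0.58). AT5G38410 is 91.2% identical to AT5G38430 and may share fragments. In whole seedlings, fewer cells of a type and less RNA per cell cannot be told apart.

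The precursors and receptors of the peptide itself were among the genes that rose. Of 15 listed genes of PEP ligands and perception, 11 were called higher and 0 lower, with a median change of 0.69, against 16.9% higher and a median of -0.0016 over all genes; at an unadjusted p under 0.05 the lower count was also 0, and it was 0 under every alternative fit. PROPEP3 (AT5G64905), the precursor of the added peptide, rose most. PROPEP3 was at 0.715, 1.82 and 1.14 FPKM in the 3 mock libraries and at 32.3, 20.6 and 22.5 FPKM in the 3 combined ones. Every combined library lay far above every mock library, and the change was 3.56 ± 0.20, limma adjusted p = 3.3e-08. PROPEP2 went from 0.275, 0.657 and 0.560 FPKM to 12.1, 7.68 and 10.2 FPKM (2.86 ± 0.21, limma adjusted p = 3.9e-07), while PROPEP1 rose from 2.89, 3.05 and 3.05 FPKM to 8.40, 6.47 and 7.36 FPKM (1.07 ± 0.12, limma adjusted p = 1.3e-05) and PROPEP4 by 1.16 ± 0.22, limma adjusted p = 0.0011.

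PROPEP5, PROPEP6, PROPEP7 and the listed gene AT5G09976 were not called, with changes of -0.18, 0.19, -0.22 and 0.33. Both receptor genes rose. PEPR1 was at 3.99, 3.78 and 4.66 FPKM under DMSO and 7.06, 8.54 and 7.92 FPKM after the combined treatment (0.78 ± 0.12, limma adjusted p = 0.00024), and PEPR2 at 0.987, 0.881 and 1.21 FPKM under DMSO and 1.99, 2.45 and 2.03 FPKM after it (0.64 ± 0.15, limma adjusted p = 0.0061). The annotation places a gene on the opposite strand over part of PEPR2 and over 37% of PROPEP6, and the sources used here do not state strand use in counting. The co-receptor genes BAK1 (0.69) and BKK1 (1.75) rose, as did the receptor-like cytoplasmic kinase genes BIK1 (0.38) and PBL1 (0.36) and the NADPH oxidase gene RBOHD (0.79), which produces the extracellular oxidative burst.

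**Figure D2:**
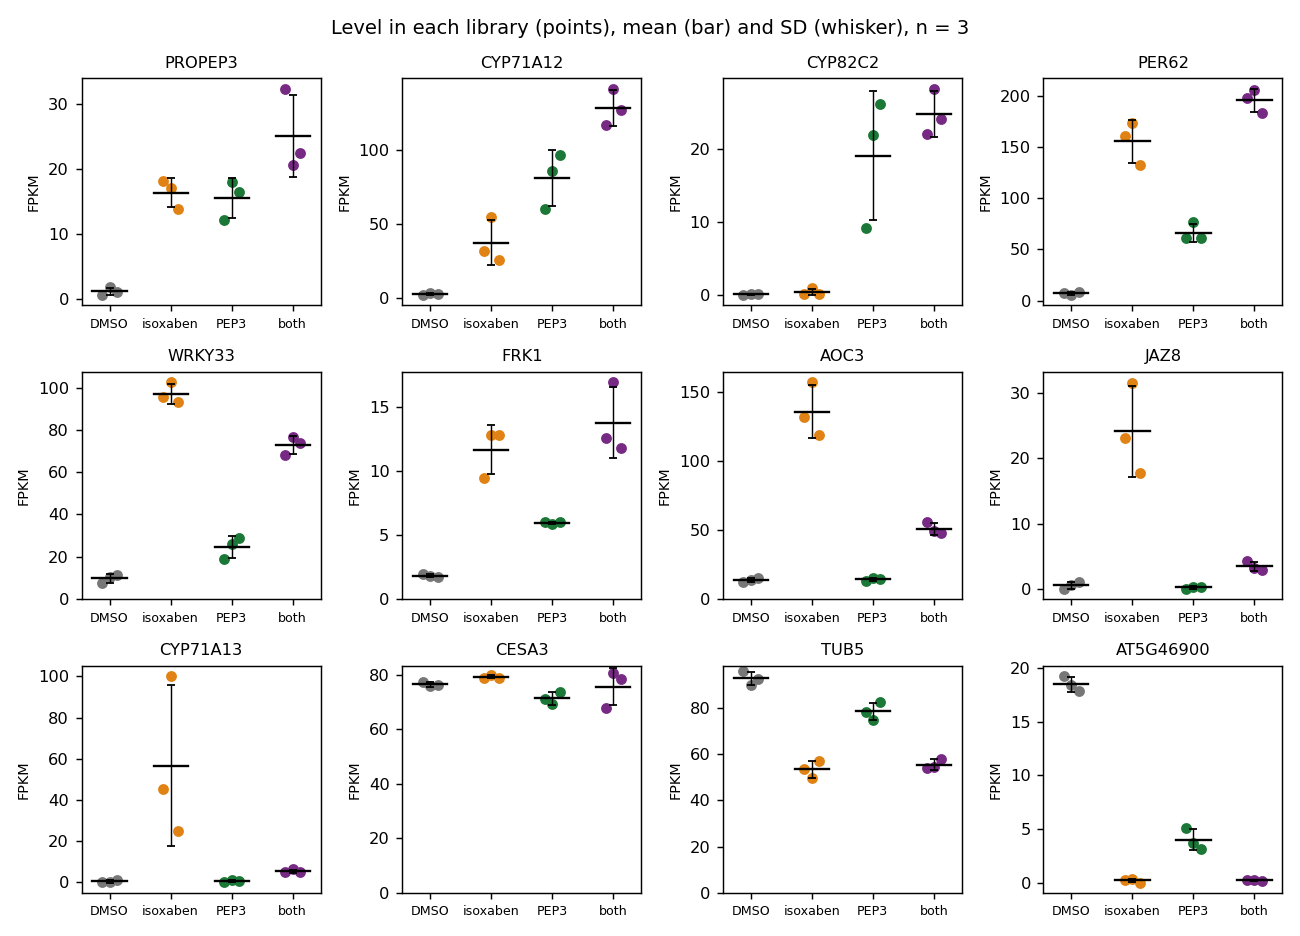
FPKM of 12 genes in each of the 12 libraries (points), with the mean (bar) and SD (whisker, n = 3) for DMSO, isoxaben, PEP3 and both; every axis is linear and starts at or below 0. PROPEP3, CYP71A12 and PER62 have their highest mean with both agents, but none was called above both single treatments. JAZ8, AOC3 and CYP71A13 peak under isoxaben alone, CESA3 is level across groups, and TUB5 and AT5G46900 are low wherever isoxaben was given.

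Nearly every listed gene of the response to molecular patterns was higher. Of 20 tested, 19 were called higher (16.9% of all genes were) and 0 lower, with a median change of 0.87. All 20 had an unadjusted p under 0.05. FRK1 (named SIRK in the deposited table), a receptor kinase gene used as a marker of pattern perception, rose from 1.94, 1.81 and 1.74 FPKM to 12.6, 16.9 and 11.8 FPKM (2.37 ± 0.13, limma adjusted p = 3.3e-08). WRKY33, the transcription factor that activates camalexin genes, rose from 7.43, 10.5 and 11.6 FPKM to 68.1, 76.7 and 73.8 FPKM (2.79 ± 0.15, limma adjusted p = 2e-08). Neither pair of groups overlapped. The kinase genes of the cascade rose by smaller values, MPK3 by 0.90 ± 0.11, limma adjusted p = 5e-05, MKK4 by 0.62, MKK5 by 0.40 and MPK6 by 0.24 ± 0.07, limma adjusted p = 0.014. The low-level kinase gene MPK11 rose by 2.00 ± 0.20, limma adjusted p = 6.5e-06. The pattern receptor genes CERK1 (0.85), EFR (0.68) and FLS2 (0.46), for chitin, elongation factor Tu and flagellin, also rose. WRKY29 was the 1 listed gene not called (0.31 ± 0.14, limma adjusted p = 0.11). Opposite-strand genes cover 11.4% to 15.9% of MPK6, WRKY33, LHCB3, SARD1, WRKY29 and MKK5.

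WRKY factors bind the W-box, a short promoter element, and the promoters of the genes that rose were searched for it. The letters TTGACC or TTGACT on either strand occurred in the 250 bases before the gene start in 28.4% of 20135 tested genes. The share was 39.9% among the 3431 genes called higher and 51.6% among the 756 called higher by at least 1. It was 22.5% among the 2918 called lower genes with a full window. A pair or more of such letters stood in 6.03% of all windows and in 19% of those of genes higher by at least 1. The promoters of PROPEP3, FRK1, WRKY33, CYP82C2 and FOX1 are printed because these genes rose together and each window holds at least 2 matches. The sequences are those of the gene strand, 5′ to 3′, read from the TAIR10.1 assembly, and capitals mark the W-box letters or their reverse complement.
PROPEP3, chr5:25939312-25939561, plus strand: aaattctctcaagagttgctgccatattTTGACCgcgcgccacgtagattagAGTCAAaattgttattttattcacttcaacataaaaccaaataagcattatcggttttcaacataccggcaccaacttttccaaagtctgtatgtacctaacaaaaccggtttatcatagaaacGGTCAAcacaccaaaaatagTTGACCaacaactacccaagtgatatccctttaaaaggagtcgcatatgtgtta
FRK1, chr2:8329945-8330194, minus strand: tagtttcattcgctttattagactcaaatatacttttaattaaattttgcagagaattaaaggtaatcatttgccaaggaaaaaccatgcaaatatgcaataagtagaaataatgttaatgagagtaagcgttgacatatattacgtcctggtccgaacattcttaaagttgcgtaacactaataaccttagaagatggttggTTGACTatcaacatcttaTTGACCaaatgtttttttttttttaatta
WRKY33, chr2:16107985-16108234, plus strand: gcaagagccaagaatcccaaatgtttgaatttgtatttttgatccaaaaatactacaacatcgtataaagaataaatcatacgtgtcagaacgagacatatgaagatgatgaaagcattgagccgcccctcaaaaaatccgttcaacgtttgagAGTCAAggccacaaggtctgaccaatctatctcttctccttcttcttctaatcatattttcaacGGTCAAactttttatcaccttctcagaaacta
CYP82C2, chr4:15462100-15462349, plus strand: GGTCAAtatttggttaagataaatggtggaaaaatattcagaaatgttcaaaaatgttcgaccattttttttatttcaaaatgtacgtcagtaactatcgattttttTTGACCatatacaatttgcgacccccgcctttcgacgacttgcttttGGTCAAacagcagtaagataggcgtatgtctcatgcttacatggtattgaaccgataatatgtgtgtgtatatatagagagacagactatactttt
FOX1, chr1:9128569-9128818, minus strand: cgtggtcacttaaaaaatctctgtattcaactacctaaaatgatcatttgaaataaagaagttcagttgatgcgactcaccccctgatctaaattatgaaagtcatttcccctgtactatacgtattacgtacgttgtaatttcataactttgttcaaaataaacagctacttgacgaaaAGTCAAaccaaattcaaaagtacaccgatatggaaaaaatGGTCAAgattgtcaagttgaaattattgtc

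The PROPEP3 window holds 4 matches, starting 222, 198, 74 and 54 bases before the gene start, and those of FRK1 start 47 and 29 bases before it. CYP82C2 holds 3, and WRKY33 and FOX1 hold 2 each. CYP71A12, the gene with the largest rise, holds none in its window, and neither do PER4, PER52, MYB15, AT1G26240 or AT5G39120. Of the 12 highest genes, 6 windows held a match, and of the 12 lowest, 1 did. The G-box (CACGTG) stood in 7.13% of all windows and 6.88% of those of genes higher by at least 1, and the GCC-box (GCCGCC) in 2.02% and 3.57%. These are matches of letters in a fixed window, not measurements of binding.

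**Figure D3:**
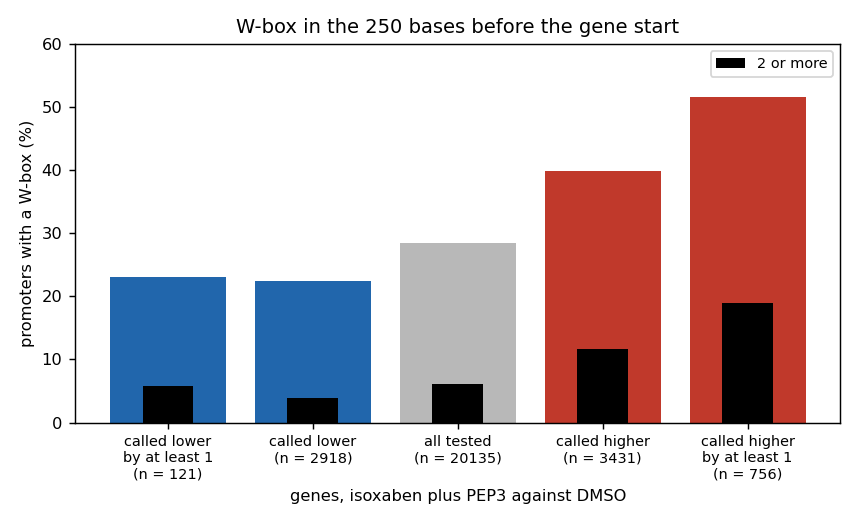
Percent of 250-base upstream windows holding a W-box (wide bars) and holding 2 or more (black bars), for genes called lower, all genes tested and genes called higher, with the number of windows under each bar. The wide bars run from 23.1% and 22.5% for lower genes through 28.4% for all genes to 39.9% and 51.6% for higher genes.

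All 15 listed genes of tryptophan, camalexin and indolic defence were called higher (16.9% of all genes were), with a median change of 1.83. That was the highest median of the lists on this scale (ethylene genes had 1.38), but with a pseudocount of 0.1 the ethylene median was higher (1.93 against 1.84), as it was by voom (1.94 against 1.84). The list starts with the supply of tryptophan. ASA1, the rate-limiting anthranilate synthase subunit, went from 25.7, 30.0 and 32.2 FPKM to 77.3, 85.8 and 82.7 FPKM (1.46 ± 0.14, limma adjusted p = 5.6e-06), and PAT1 (1.38), IGPS (1.83), TSA1 (1.97) and TSB1 (1.57) along the same pathway rose too. CYP79B2 (1.51 ± 0.16, limma adjusted p = 1.1e-05) and CYP79B3 (0.69), which turn tryptophan into indole-3-acetaldoxime, rose as well. PAD3 (CYP71B15), the last enzyme of camalexin synthesis, was at 7.70, 10.9 and 17.8 FPKM under DMSO and 72.2, 75.2 and 67.6 FPKM in the combined libraries (2.54 ± 0.28, limma adjusted p = 1.8e-05), and GGP1, which processes glutathione conjugates, rose least of the list (0.65).

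CYP71A13, a close relative of CYP71A12 that acts in camalexin synthesis, had another order of levels. It was at 0.0931, 0.334 and 1.16 FPKM under DMSO and 4.91, 6.34 and 4.83 FPKM in the combined libraries (2.11 ± 0.40, limma adjusted p = 0.0012), but at 45.3, 99.99 and 24.8 FPKM under isoxaben alone and 0.115, 1.15 and 0.785 FPKM under PEP3 alone. The combined level was thus lower than with isoxaben alone (-2.97, limma adjusted p = 0.00069), whereas CYP71A12 was higher than with isoxaben alone (1.83, limma adjusted p = 0.00062). CYP82C2 differed again. Its level under isoxaben alone was 0.195, 0.901 and 0.190 FPKM and under PEP3 alone 9.18, 21.9 and 26.1 FPKM, and the combined level did not pass the test against PEP3 alone (0.47, limma adjusted p = 0.38). A gene on the opposite strand covers 27.5% of CYP71A13.

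Indole and aliphatic glucosinolate genes went in opposite directions. Of 10 listed indole glucosinolate genes 9 were called higher and 1 lower, against 16.9% and 14.4% of all genes, with a median of 0.99. The methyltransferase genes IGMT1 (1.56 ± 0.14, limma adjusted p = 3.1e-06) and IGMT2 (3.33 ± 0.18, limma adjusted p = 2e-08), which complete the modification begun by CYP81F2, and the regulator MYB122 (1.82) rose. IGMT2 is 96.6% identical to AT1G21110 and may share fragments with it. CYP83B1, the entry enzyme of the indole branch, rose from 238 ± 23.4 to 608 ± 26.9 FPKM (1.36 ± 0.09, limma adjusted p = 2.4e-07), and SUR1 in the core pathway by 0.37. MYB34, another regulator of the same branch, fell (-0.61 ± 0.11, limma adjusted p = 0.00069), while MYB51, counted with the pattern-response genes, rose from 10.7, 12.1 and 12.0 FPKM to 42.0, 48.1 and 47.2 FPKM (1.89 ± 0.13, limma adjusted p = 2e-07).

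Of 11 aliphatic glucosinolate genes tested, 0 were called higher and 8 lower (14.4% of all genes were), with a median of -0.42. Only SOT17, which was not called, had a change above 0 (0.31 ± 0.11, limma adjusted p = 0.058). MYB29, one of the regulators of the methionine-derived branch, fell from 7.96, 9.38 and 8.95 FPKM to 3.42, 3.24 and 3.70 FPKM (-1.13 ± 0.11, limma adjusted p = 3.4e-06), and MYB28, the other, fell too (-0.65 ± 0.08, limma adjusted p = 4.8e-05). The biosynthetic genes CYP79F1 (-0.77), MAM1 (-0.74) and CYP83A1 (-0.52) were lower too, and MAM3 was not called (-0.02). At an unadjusted p under 0.05, 1 of the list was higher, and by voom or without DMSO replicate 3, 1 was called higher.

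Cell wall phenolics formed a further group. Of 20 phenylpropanoid and lignin genes, 15 were called higher and 1 lower, against 16.9% and 14.4% of all genes, with a median of 0.67. PAL1, which makes cinnamic acid from phenylalanine, rose from 84.0 ± 4.53 to 168 ± 11.5 FPKM (0.99 ± 0.10, limma adjusted p = 9.7e-06), and C4H (0.77), 4CL1 (1.13), HCT (0.68), CCoAOMT1 (0.66) and CAD5 (1.01) stood along the rest of the pathway. The reductase gene CCR2, linked to defence, changed most. CCR2 was at 2.01, 1.66 and 2.39 FPKM in the 3 mock libraries and at 17.6, 18.2 and 14.8 FPKM in the 3 combined ones. CCR1, its developmental relative, was not called (0.34 ± 0.13, limma adjusted p = 0.061), and 81.2% of it is covered by a gene on the opposite strand. PAL3 fell (-0.45 ± 0.13, limma adjusted p = 0.017), 4CL3 was not called (-0.38), and the laccase genes LAC4 (-0.07) and LAC17 (-0.26), which polymerise lignin in vessels, were not called. A gene on the opposite strand covers 91.9% of LAC17. The count called lower was 0 without DMSO replicate 2 or combined replicate 1, and 2 by voom, under quantile normalization and with only the groups compared.

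Peroxidases and glutathione transferases were counted by symbol after their values had been seen. Of 60 tested PER genes 25 were called higher and 13 lower, and of 35 tested GSTU and GSTF genes 20 were called higher and 5 lower. Over all genes, 16.9% were called higher and 14.4% lower. Of 59 WRKY genes 33 were called higher and 2 lower, with a median of 0.52, and of 38 CRK genes, cysteine-rich receptor-like kinases, 27 and 1, with a median of 0.70. By the domain annotation in the deposited table, 95 families had at least 20 tested genes. The WRKY domain had the largest share called higher (55%), followed by LRRNT_2, the leucine-rich repeat cap (20 of 38), FAD_binding_4, which FOX1 carries (16 of 31), and GST_N (15 of 31). TIR, the domain of a class of intracellular immune receptors, was called higher in 36 of 81 genes and lower in 1.

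Genes of 3 defence hormones were higher. For ethylene, 14 of 15 tested genes were called higher (16.9% of all genes were), with a median of 1.38. ACS6, a stress-inducible enzyme of ethylene synthesis, rose from 6.79, 6.67 and 7.10 FPKM to 27.9, 34.6 and 30.0 FPKM (2.01 ± 0.12, limma adjusted p = 4.1e-08). Among the response factor genes, ERF6 rose by 2.91 ± 0.18, limma adjusted p = 9.7e-08 and ERF1 by 2.53 ± 0.14, limma adjusted p = 2.5e-08. ERF1 was at 0.329, 0.449 and 0.656 FPKM in mock and 6.97, 8.19 and 7.37 FPKM in combined libraries. The response factor gene ORA59 rose least of those called (0.51 ± 0.11, limma adjusted p = 0.003), and the synthesis gene ACO1 was not called (0.12 ± 0.11, limma adjusted p = 0.49).

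All 16 tested genes of salicylic acid synthesis, signalling and pathogenesis-related proteins were called higher (16.9% of all genes were), with a median of 1.04. The count was 14 without DMSO replicate 3, and 15 when any other DMSO or combined library was left out. The regulators CBP60G (2.40 ± 0.12, limma adjusted p = 1.7e-08) and SARD1 (1.84), which activate the synthesis gene ICS1, rose, as did ICS1 itself (0.69 ± 0.16, limma adjusted p = 0.0055). PBS3, which acts after ICS1, was at 0.212, 0.339 and 0.186 FPKM under DMSO and 3.39, 3.58 and 3.38 FPKM after the combined treatment (1.84 ± 0.17, limma adjusted p = 2.9e-06). The marker gene PR1 was low throughout and variable. Its mock values were 0.514, 0.184 and 0.12 FPKM and its combined values 1.70, 0.633 and 4.00 FPKM, so the groups did not overlap, but the change of 1.15 ± 0.33, limma adjusted p = 0.017 lost its call without DMSO replicate 2, DMSO replicate 3 or combined replicate 3 (limma adjusted p = 0.051, 0.053 and 0.069). PR2 (1.35) and PR5 (1.23) were also called higher. The transcription factor gene WRKY70 rose by 1.97 ± 0.18, limma adjusted p = 3.1e-06, and the salicylic acid receptor genes NPR1 (0.47) and NPR4 (0.40) by smaller values.

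Jasmonate genes rose against DMSO but stayed below their level under isoxaben alone. Of 13 tested synthesis genes 10 were called higher (16.9% of all genes were) and 0 lower than DMSO, with a median of 0.63. The higher count was 8 without DMSO replicate 1, with a median of 0.44, and 9 without combined replicate 2. Against isoxaben alone, 10 of the 13 were called lower (4.09% of all genes were). AOC3, an allene oxide cyclase gene, was at 12.3, 13.6 and 15.5 FPKM under DMSO, 132, 157 and 119 FPKM under isoxaben, 13.0, 15.3 and 14.6 FPKM under PEP3 and 55.8, 49.5 and 47.5 FPKM with both. The combined libraries lay above both DMSO and PEP3 and below isoxaben, without overlap, and the changes were 1.82 ± 0.11, limma adjusted p = 6.5e-08 against DMSO and -1.39 (limma adjusted p = 1e-05) against isoxaben. LOX4 (2.04 ± 0.14, limma adjusted p = 2.1e-07), OPCL1 (1.26), OPR3 (1.17) and AOS (0.63), the other steps from fatty acid to jasmonate, likewise had their highest mean under isoxaben alone and the next highest with both. The cyclase gene AOC4 (-0.13) was not called. JAR1, which conjugates jasmonate to isoleucine, was not called (-0.02 ± 0.07, limma adjusted p = 0.89).

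Repressors and inactivating enzymes, which respond to jasmonate, had a median of 1.15. Of 21 tested, 15 were called higher and 1 lower than DMSO, against 16.9% and 14.4% of all genes. Under the alternatives, 13 to 16 were called higher and 1 or 2 lower. Against isoxaben alone, 18 of the 21 were called lower (4.09% of all genes were). JAZ10 rose from 1.84, 2.50 and 2.05 FPKM to 9.53, 8.44 and 9.36 FPKM (1.70 ± 0.12, limma adjusted p = 3.8e-07) and was at 30.1, 34.1 and 23.7 FPKM under isoxaben alone. JAZ8 (TIFY5A) was at 0, 0.619 and 1.07 FPKM under DMSO, 4.24, 3.19 and 2.85 FPKM with both and 23.1, 31.6 and 17.8 FPKM with isoxaben, a difference of -2.48 (limma adjusted p = 8.8e-05) from the latter. The cytochrome P450 gene CYP94C1, which takes part in the breakdown of jasmonoyl-isoleucine, rose by 2.58 ± 0.14, limma adjusted p = 2.9e-08. JAZ5 rose by 1.97, JAZ4 fell (-0.56 ± 0.14, limma adjusted p = 0.0067), and CYP94B1, a relative of CYP94C1, was not called (-0.27).

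Of 12 jasmonate and wound outputs tested, 6 were called higher (50%) and 2 lower (16.7%), against 16.9% and 14.4% of all genes. The lower share was thus near that of all genes. Under the alternatives, 4 to 6 were called higher and 1 or 2 lower. TAT3, a wound-inducible aminotransferase, rose from 5.07, 3.28 and 6.62 FPKM to 54.2, 60.5 and 76.2 FPKM (3.46 ± 0.23, limma adjusted p = 1.5e-07), and the terpene synthase gene TPS04 rose by 1.40 ± 0.28, limma adjusted p = 0.0018. The vegetative storage protein genes fell. VSP1 was at 2.81, 4.35 and 6.46 FPKM under DMSO and 2.30, 0.533 and 1.23 FPKM with both (-1.25 ± 0.32, limma adjusted p = 0.0082), and VSP2 at 1.77, 2.74 and 4.20 FPKM under DMSO and 1.35, 0.942 and 0.180 FPKM with both (-1.11 ± 0.30, limma adjusted p = 0.013). VSP2 lost its call without DMSO replicate 3 or combined replicate 3 (limma adjusted p = 0.059 and 0.061). The defensin gene PDF1.2a spread widely within both groups, from 7.69, 20.7 and 10.8 FPKM to 12.3, 28.2 and 9.17 FPKM, and was not called (0.27 ± 0.43, limma adjusted p = 0.68).

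**Figure D4:**
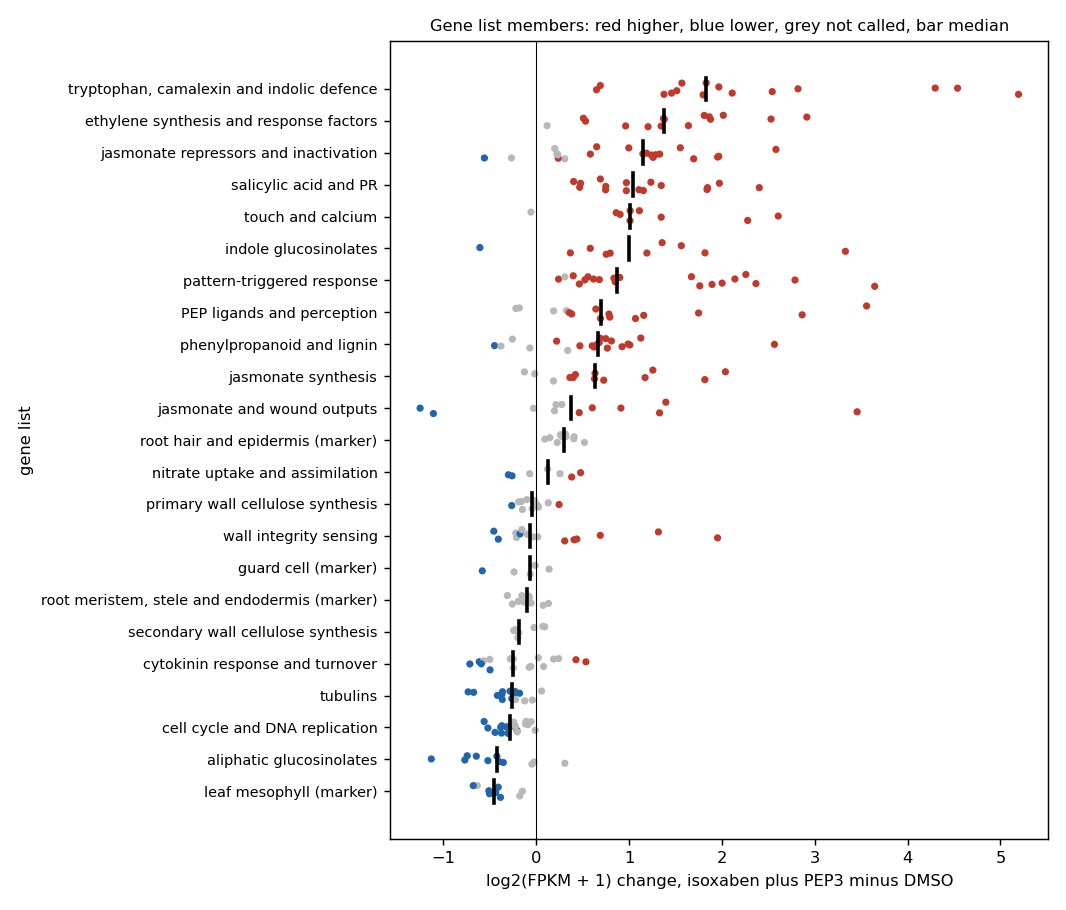
Change in log2(FPKM + 1), isoxaben plus PEP3 minus DMSO (horizontal), for each tested member of 23 gene lists (rows, ordered by median), 1 point per gene: red called higher, blue called lower, grey not called, black bar the list median. Medians run from 1.83 for indolic defence down to -0.45 for leaf mesophyll markers, and the primary and secondary wall cellulose lists sit at -0.05 and -0.19.

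Touch-inducible and calcium genes were called higher in 8 of 9 cases (16.9% of all genes were), with a median of 1.01. The count was 7 of 9 without DMSO replicate 1 or combined replicate 1. TCH4, a xyloglucan-modifying enzyme gene (XTH22 in the deposited table), went from 6.15, 4.92 and 11.0 FPKM to 46.1, 53.0 and 44.0 FPKM (2.61 ± 0.20, limma adjusted p = 5.7e-07), and the calmodulin-like gene TCH3 from 30.8, 33.6 and 36.4 FPKM to 148, 187 and 166 FPKM (2.28 ± 0.09, limma adjusted p = 1.3e-09). A gene on the opposite strand covers 43.9% of TCH3. CML42 rose least of the 8 (0.86), and the annexin gene ANNAT4 was not called (-0.06 ± 0.13, limma adjusted p = 0.77).

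Of 16 genes of wall integrity sensing 6 were called higher and 3 lower, with a median of -0.07, against 16.9% higher and 14.4% lower over all genes. The lower count was 2 without a variance trend and when any 1 library other than combined replicate 1 was left out. WAK1, a wall-associated kinase that binds pectin fragments, rose from 23.1, 18.6 and 22.6 FPKM to 80.8, 92.4 and 83.3 FPKM (1.95 ± 0.10, limma adjusted p = 1.3e-08). MIK2, a leucine-rich repeat kinase required for part of the response to isoxaben, rose from 25.6, 28.5 and 27.9 FPKM to 67.5, 73.1 and 68.0 FPKM (1.32 ± 0.08, limma adjusted p = 5.7e-08). FER rose slightly (0.31 ± 0.07, limma adjusted p = 0.0044), and THE1, the receptor kinase known for sensing cellulose deficiency, was not called (-0.04 ± 0.09, limma adjusted p = 0.81). The calcium channel gene MCA1 (-0.46 ± 0.08, limma adjusted p = 0.00055) and the peptide gene RALF34, a ligand of THE1 (-0.41 ± 0.07, limma adjusted p = 0.00083), fell, as did FEI1 (-0.18 ± 0.06, limma adjusted p = 0.031).

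Most genes of cellulose synthesis were not called, and neither were 13893 of all 20248 genes tested. CESA3, in which mutations give resistance to isoxaben, was at 77.4, 75.7 and 76.0 FPKM under DMSO and 67.8, 80.5 and 78.4 FPKM after the combined treatment, and the groups overlapped (-0.02 ± 0.06, limma adjusted p = 0.86). CESA1 (-0.15 ± 0.06, limma adjusted p = 0.086) and CESA6 (-0.05 ± 0.06, limma adjusted p = 0.63) were not called either. Of 11 primary wall genes tested, 1 was called higher and 1 lower, against 16.9% and 14.4% of all genes. The higher one was AT1G45688 (0.25 ± 0.06, limma adjusted p = 0.0077). The lower one was CSI1, which links the synthase to microtubules (-0.26 ± 0.09, limma adjusted p = 0.034). AT5G42860 (0.13) and COB (-0.19) were not called. At an unadjusted p under 0.05, 1 primary wall gene was higher and 3 lower. The count called lower was 3 under quantile normalization, 2 under TPM or median-of-ratios scaling, a GC and length correction, voom, a filter at 2 FPKM or protein-coding genes only, and 0 without DMSO replicate 2, DMSO replicate 3, combined replicate 1 or combined replicate 3. Of 7 secondary wall genes 0 were called in limma, 0 had an unadjusted p under 0.05, and voom and every other alternative also gave 0. Their changes ran from -0.24 for CESA7, a synthase subunit of vessel walls, to 0.09 for the xylan synthesis gene IRX14, with COBL4 at -0.22 and CTL2 at 0.07.

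Microtubules guide the cellulose synthase, and their genes were lower. Of 15 listed tubulin genes 11 were called lower (14.4% of all genes were) and 0 higher, with a median of -0.26. At an unadjusted p under 0.05 there were 12, all lower. TUB5 fell most. TUB5 was at 95.8, 90.005 and 92.5 FPKM in the 3 mock libraries and at 53.8, 54.2 and 58.0 FPKM in the 3 combined ones. The groups were well separated (-0.73 ± 0.06, limma adjusted p = 1.7e-06), and TUB1 went from 11.5, 13.1 and 13.5 FPKM to 6.88, 8.48 and 7.41 FPKM (-0.67 ± 0.12, limma adjusted p = 0.00084). TUA1 (0.06) and TUB2 (-0.04) were not called. Genes on the opposite strand cover 24.2% of TUB1 and 20.5% of TUA1. By the domain annotation, 15 of 20 tested genes with the tubulin domain were called lower, the largest share of any of the 95 families. Some tubulin genes are near copies, such as TUA3 and TUA5 at 95.5% identity, and may share fragments.

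Division genes were lower by small amounts. Of 20 cell cycle and replication genes 12 were called lower (14.4% of all genes were) and 0 higher, with a median of -0.29. At an unadjusted p under 0.05 there were 13, all lower. CYCB1;1, a mitotic cyclin, went from 7.03, 8.74 and 6.99 FPKM to 4.85, 4.29 and 5.27 FPKM (-0.56 ± 0.13, limma adjusted p = 0.0038), and CYCD3;1, a cyclin of cell cycle entry, from 15.3, 15.9 and 15.7 FPKM to 11.6, 10.8 and 11.3 FPKM (-0.44 ± 0.08, limma adjusted p = 0.00078). The cytokinesis gene KNOLLE fell too (-0.52 ± 0.15, limma adjusted p = 0.018), and a gene on the opposite strand covers 31.4% of it. The replication licensing genes MCM2 (-0.01) and MCM5 (-0.06) were not called. Over the alternatives the count called lower ran from 3 to 13, with 3 without DMSO replicate 1, 5 without combined replicate 3, 7 without combined replicate 1 and 8 without DMSO replicate 2. Kinesin-domain genes were called lower in 19 of 57 cases and cyclin C-terminal domain genes in 9 of 27, each 33.3%, against 14.4% of all genes. Ribosomal protein genes (symbols RPL and RPS) were called lower in 41 of 254 cases, near the 14.4% of all genes, and higher in 5.

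Of 17 cytokinin genes tested 2 were called higher (11.8%) and 4 lower (23.5%), against 16.9% and 14.4% of all genes. At an unadjusted p under 0.05, 2 were higher and 9 lower. The count called lower was 8 by voom, 7 under quantile normalization and 6 with only the groups compared or without combined replicate 3. The count called higher was 1 without DMSO replicate 1, DMSO replicate 2 or combined replicate 3, with only the groups compared and with a filter at 2 FPKM. The response regulator genes ARR6 (-0.72 ± 0.12, limma adjusted p = 0.00036), ARR9 (-0.61) and ARR8 (-0.50) and the synthesis gene IPT5 (-0.59) fell, and the cytokinin oxidase genes CKX4 (0.53 ± 0.13, limma adjusted p = 0.0052) and CKX5 (0.43 ± 0.15, limma adjusted p = 0.04) rose. Genes on the opposite strand cover 22.5% of CKX5 and 15.1% of ARR6. Of 7 nitrate genes 2 rose, NAR2.1 (0.48 ± 0.07, limma adjusted p = 0.00018) and NIA2 (0.38), and 2 fell, NIR1 (-0.26 ± 0.05, limma adjusted p = 0.0023) and GLN2 (-0.30). Expansin genes (EXPA symbols) were called lower in 6 of 13 cases and higher in 0, and XTH genes in 7 of 27 cases each way.

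Photosynthetic genes were lower. Of 10 leaf mesophyll markers 7 were called lower (14.4% of all genes were) and 0 higher, with a median of -0.45. Over the alternatives the count called lower ran from 6, as without DMSO replicate 1, to 9 by voom. At an unadjusted p under 0.05, 8 were lower. LHCB3, an antenna protein of photosystem II, was at 827, 655 and 663 FPKM under DMSO and 358, 522 and 466 FPKM in the combined libraries (-0.68 ± 0.14, limma adjusted p = 0.0027). The Rubisco small subunit gene RBCS1A was not called (-0.15). PSAD1 went from 985 ± 49.6 to 692 ± 55.2 FPKM (-0.51 ± 0.07, limma adjusted p = 6.9e-05). Of 19 LHCA and LHCB genes 11 were called lower and 0 higher, and LHCB1.1 and LHCB2.1, whose near copies are over 90% identical, were not called. The summed level of the 10 markers was 22886 to 24154 FPKM in mock and 19605 to 20081 FPKM in combined libraries, which did not overlap. None of the 10 was at 0, and the part of the lower marker level in these changes was not tested. Isoxaben libraries summed to 18015 to 19899 FPKM and PEP3 libraries to 20101 to 22321 FPKM.

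Root markers did not follow. Of 10 root hair and epidermis markers and 10 markers of root meristem, stele and endodermis, 0 of each were called by limma. The shares over all genes were 16.9% higher and 14.4% lower. At an unadjusted p under 0.05 there were 3 root hair markers, all higher, and 1 inner root marker, which was lower. Root hair markers ran from 0.09 (COBL9) and 0.15 (MRH6) to 0.41 (PRP1) and 0.52 (RSL4), and inner root markers from -0.31 (WOX5) and -0.26 (PHO1) to 0.07 (CASP1) and 0.13 (PLT2). Under other fits, up to 4 root hair markers were called higher (4 without DMSO replicate 3) and up to 1 of the inner root markers lower. Their summed levels overlapped, at 176.6 to 279 and 257 to 332 FPKM for root hair markers and 172 to 207 and 161 to 177 FPKM for the inner root, in mock and combined libraries. Of 5 guard cell markers tested 1 was called lower (20%), near the 14.4% of all genes. That marker was EPF1 (-0.58 ± 0.17, limma adjusted p = 0.017). The guard cell list summed to 18.4 to 18.9 FPKM in mock and 15.3 to 17.4 FPKM in combined libraries. EPF1 lost its call without DMSO replicate 1 or DMSO replicate 3 (limma adjusted p = 0.066 and 0.063). FAMA (-0.01), KAT1 (0.14) and MYB60 (-0.24) were not called. Of the 7 seed storage markers 4 were at 0 in all mock and all combined libraries. AT2S1, the 1 tested, was not called (0.36), and their sum reached at most 0.23 and 0.81 FPKM.

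The combined treatment was also set against each single one. It was called different from isoxaben alone for 1501 genes (7.41%), 673 higher (3.32%) and 828 lower (4.09%), and from PEP3 alone for 1673 genes (8.26%), 1218 higher (6.02%) and 455 lower (2.25%). A difference of at least 1 was reached by 187 genes against isoxaben (0.924%; 70 higher, 0.346%, and 117 lower, 0.578%) and by 290 against PEP3 (1.43%; 269 higher, 1.33%, and 21 lower, 0.104%). Of the calls against PEP3 72.8% were higher, with 63.71% under TPM scaling (1069 higher, 609 lower) and 62.48% under quantile normalization (1099 higher, 660 lower). These contrasts share the combined libraries with the comparison against DMSO, so the values are given side by side. For the jasmonate lists the combined level lay between the single treatments, with median differences of -0.93 from isoxaben and 0.94 from PEP3 for synthesis and -1.07 and 1.03 for repressors. For PEP ligands and perception the medians were 0.00 and 0.63, and for indolic defence 0.19 and 0.64. PROPEP3 was at 18.2, 17.0 and 13.9 FPKM under isoxaben and 12.1, 18.0 and 16.4 FPKM under PEP3, and the combined level passed the test against neither (0.57, limma adjusted p = 0.11; 0.65, limma adjusted p = 0.063). PEPR1 and PEPR2 were lower than under isoxaben alone, where PEPR1 was at 12.8, 13.0 and 9.46 FPKM (-0.52, limma adjusted p = 0.019) and PEPR2 at 5.15, 6.74 and 4.64 FPKM (-1.03, limma adjusted p = 0.0014).

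**Figure D5:**
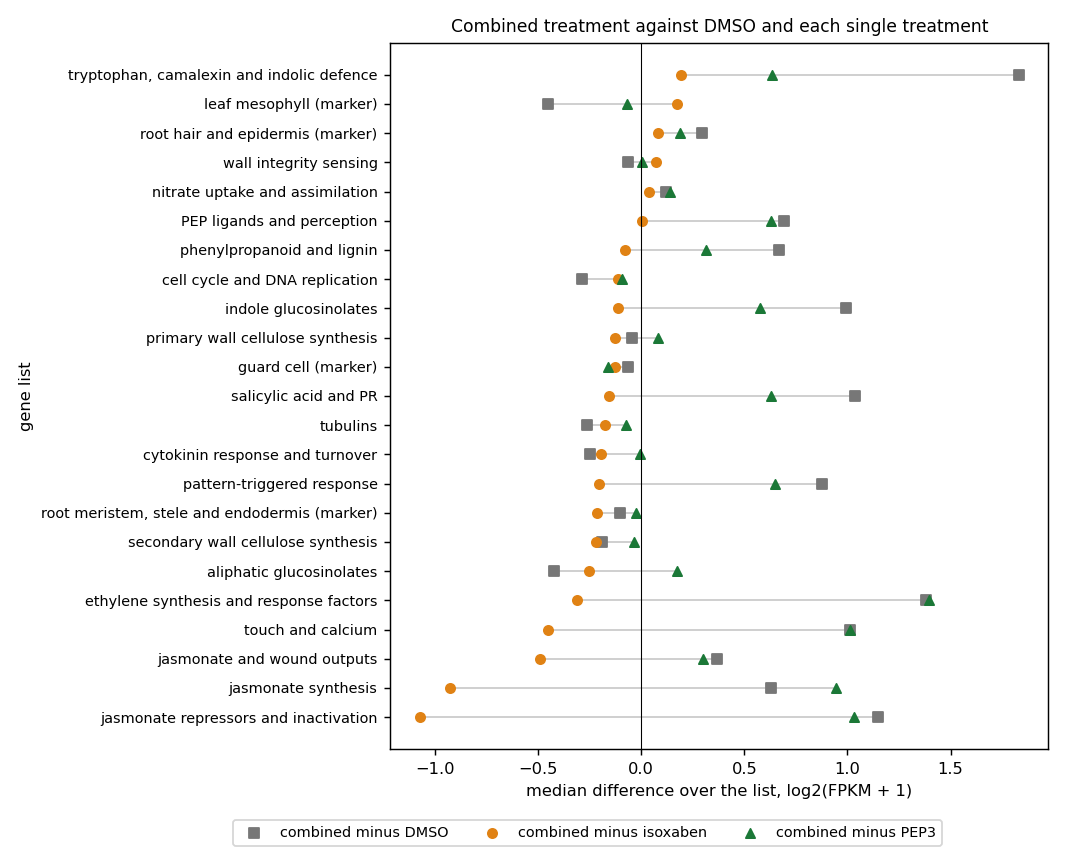
Median difference over each gene list on the log2(FPKM + 1) scale (horizontal), for the combined treatment minus DMSO (grey squares), minus isoxaben (orange circles) and minus PEP3 (green triangles), 1 row per list in the order of the isoxaben difference. Jasmonate lists lie lowest on the isoxaben difference, at -1.07 and -0.93, while indolic defence lies at 0.19, and PEP ligands and perception at 0.00.

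Of all genes, 1 was called above both single treatments at once (0.00494%). AT4G01700 (chromosome 4, 732313-733510), annotated as a chitinase, was at 29.1, 29.3 and 32.5 FPKM under DMSO, 88.0, 83.2 and 84.9 FPKM under isoxaben, 94.7, 80.9 and 87.9 FPKM under PEP3 and 131, 155 and 165 FPKM with both. The combined libraries lay above all others, and the smaller of the 2 differences was 0.77 (limma adjusted p = 0.0099 for the larger of both p-values). No gene was called above both in a fit of only the 3 treated groups, in one without the variance trend, at a log2 difference of at least 1, or without PEP3 replicate 2, PEP3 replicate 3 or combined replicate 2. A gene on the opposite strand covers 32.7% of it. By limma 0 genes were called below both, and at an unadjusted p under 0.05 there were 294 genes above and 271 below. At the adjusted threshold voom called 8 above and 1 below, where limma called 1 and 0. The nearest others did not pass. They included the oxidase gene FOX5, with means of 12.6, 12.4 and 21.9 FPKM under isoxaben, PEP3 and both (limma adjusted p = 0.11), and PER49, with 53.3, 42.9 and 84.1 FPKM (limma adjusted p = 0.11).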

How the data were processed

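RNA was measured in 12 libraries of whole Col-0 seedlings, 3 in each of 4 groups, by poly(A) paired-end sequencing, per the labels' protocols. The authors deposited 1 table of FPKM values per gene with gene coordinates and domain annotation. Reads were aligned with HISAT2 2.0.5 to TAIR10, per the submitters' processing notes. For the counting tool and its use of strand, nothing is stated in the sources used here. FPKM times gene length and depth gave whole fragments for 100% of values, so depth is known (16995775 to 22793764 fragments per library).

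The filter kept 20248 genes whose 12-library mean reached 0.5 FPKM, and 12585 were not tested. A model with 4 group means was fitted to log2(FPKM + 1) with limma 3.58.1 in R 4.3.3 (lmFit, eBayes with a trend, 8 residual degrees of freedom), with Benjamini-Hochberg adjustment over all genes tested and a threshold of 0.05. A gene was beyond both single treatments when both differences had the same sign, taking the larger p. Tables were made with Python 3.11.15, pandas 2.3.3, numpy 2.4.6 and matplotlib 3.10.9. Gene positions matched the TAIR10.1 annotation for 99.95% of shared nuclear genes, and promoter windows of 250 bases were read from that assembly. Near copies (at least 90% identity over at least 50% of the gene) were found with BLAST 2.17.0. The script was run on simulated data, where recovery of the largest changes was required for the comparisons with DMSO, isoxaben and PEP3. No recovery was required of the test beyond both single treatments.

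Genes were named by rule: the 12 highest and 12 lowest called protein-coding genes whose libraries did not overlap, a panel of 15 genes, up to 4 extreme members of each list, genes called beyond both single treatments, and the 5 largest gains and losses in FPKM. Further list members are named for their place in a pathway, after their values were seen. The members and lists were chosen with earlier results of these data known. Alternatives changed the pseudocount, filter, scaling, variance model, libraries in the fit, replicate block, threshold and tool (voom on recovered fragments).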

Additional observations from a re-analysis of the deposited data

How the results depend on the processing

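The count called against DMSO stayed within 1.5 times of 6355 except under stricter thresholds. With a log2 change of at least 1 it was 881 (756 higher, 125 lower), against isoxaben 187 (70 and 117), against PEP3 290 (269 and 21) and beyond both single treatments 0 (0 higher). At an adjusted p under 0.01 the counts were 4078 against DMSO (1752 lower), 537 against isoxaben (226 and 311) and 835 against PEP3 (709 and 126). With only the groups compared, 931 genes were called against isoxaben (394 and 537) and 0 beyond both. Without a variance trend 0 were beyond both, and by voom 9 (8 higher, 1 lower). Leaving out 1 library gave 4873 to 5671 calls against DMSO (2732 to 3082 higher, 2141 to 2589 lower) and 881 to 1349 against isoxaben (399 to 543 and 465 to 806). It gave 1011 to 1612 against PEP3 (809 to 1130 and 202 to 482) and 0 to 3 beyond both (0 to 3 higher, 0 lower). Against isoxaben the count was 881 without isoxaben replicate 1, 944 without combined replicate 2 and 894 without combined replicate 3; against PEP3 it was 1011 without combined replicate 2. Beyond both it was 3 without isoxaben replicate 2 and 2 without combined replicate 3. The cause was not tested; fewer libraries enter these fits.

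The share of calls against DMSO that were higher was 53.99%, with 50.04% under TPM scaling and 44.41% under quantile normalization. Same-numbered libraries of the combined and DMSO groups deviated together at correlations of -0.034 to 0.047, so the numbers were not taken as pairs; with a replicate block 6153 genes were called against DMSO (3336 higher, 2817 lower). Only the 136 genes named by rule were followed gene by gene through the alternatives. Further list members named in the text, such as FEI1, were not. Of the 136 genes 96 were called, and 86 of these kept direction and call in every alternative. The 10 that lost the call (limma adjusted p) were CKX5 (0.057 to 0.17), CSI1 (0.05 to 0.13), KNOLLE (0.054 to 0.066), NPR4 (0.057 to 0.074), PR1 (0.051 to 0.069), EPF1 (0.063 to 0.066), PAL3 (0.061 to 0.076), VSP2 (0.059 to 0.061) and MPK6 (0.052 to 0.053) when 1 library was left out (CKX5 and CSI1 also with only the groups compared, MPK6 also under quantile normalization), and CYP71A13 (0.057) by voom. Genes near 0 that were not called changed sign: TUA1 under quantile normalization (-0.0066), and the ranges without 1 library were AOC4 -0.30 to 0.0033, MCM2 -0.044 to 0.044, MRH6 -0.056 to 0.26, CASP1 -0.052 to 0.18, ANNAT4 -0.14 to 0.043, JAR1 -0.052 to 0.030, CTL2 -0.026 to 0.18, FAMA -0.077 to 0.090, CESA3 -0.066 to 0.056, PROPEP7 -0.38 to 0.028, PROPEP5 -0.39 to 0.11, MAM3 -0.092 to 0.016, PDF1.2a -0.17 to 0.64, COBL9 -0.023 to 0.20 and CESA6 -0.077 to 0.012. For genes under about 1 FPKM the pseudocount and depth limit what can be seen.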
